A study of Arabidopsis thaliana with 9 samples.

Results

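The comparison described here sets the p5cs1-4 library labelled stress over the p5cs1-4 control library, which are 2 of the 9 libraries of the series. The p5cs1-4 line carries a mutation in P5CS1, which encodes the stress-induced enzyme of proline synthesis. The series also holds wild type Col-0 (WT) and aba2-1, a mutant of a gene of abscisic acid (ABA) synthesis, each with the same 3 treatments. All seedlings grew for 7 days without added sugar in continuous light. Control seedlings then spent 96 h on fresh medium at -0.25 MPa, stressed seedlings spent 96 h at -1.2 MPa on medium infused with polyethylene glycol, and released seedlings went back to control medium for a further 10 h. RNA came from whole seedlings, and the mRNA of 3 experiments was pooled into 1 library per genotype and treatment. There is no replicate on either side, so no test between conditions could be made, and every interval below covers counting error only.

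Proline is made from glutamate by the P5CS and P5CR enzymes and is broken down in mitochondria by proline dehydrogenase and P5C dehydrogenase. It accumulates in Arabidopsis at low water potential, and much of that accumulation depends on P5CS1 and on ABA. ABA binds receptors that inhibit the clade A protein phosphatases, which frees kinases that activate dehydration genes such as RAB18. Anthocyanins, purple flavonoid pigments, are another common product of stressed seedlings, and their late enzymes are switched on by a complex of MYB, bHLH and WD40 proteins.

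Titles and table names disagree on which library was stressed and which was released: the table titled stress carries the letter R and the table titled release carries the letter S. The gene named in the mutant, P5CS1 (AT2G39800, chromosome 2), had a scaled read count (CPM, reads per 1000000 reads) of 125 in the p5cs1-4 control, of 174 under the stress label and of 1199 under the release label. PRODH1, the proline dehydrogenase that proline itself induces, had 125, 240 and 20.1 CPM in the same order, and the dehydrin gene RAB18 had 22.4, 81.4 and 4778 CPM. In WT, P5CS1 had 195 CPM in the control, 74.1 CPM under the stress label and 3918 CPM under the release label. High P5CS1 thus stood under the release label in both genotypes, with high RAB18 and low PRODH1 there in p5cs1-4, which goes against the titles. In aba2-1, P5CS1 had 634, 91.2 and 1389 CPM in that order. Directions below are those of the library labelled stress, whatever was done to its seedlings.

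The library labelled p5cs1-4 stress was nearer to the aba2-1 libraries than to its own control. It differed by at least 2-fold at 583 genes from the aba2-1 control, at 711 genes from the aba2-1 library labelled stress, and at 1622 genes from the p5cs1-4 control. Pearson's r of log2(CPM + 1) over 16036 genes was 0.959, 0.954 and 0.915 for the same 3 pairs, given as a description. Depth was uneven: 18273148 reads lay on genes in the p5cs1-4 control and 6917827 in the library labelled stress, within a range of 4898426 to 18273148 over the 9 libraries. Of the 13 late anthocyanin genes described below, 13 had a level nearer to the aba2-1 control than to the p5cs1-4 control. So had 20 of 20 light harvesting, 20 of 20 Calvin cycle and 31 of 35 rapid response genes past the floor given below. For root markers it was 6 of 10 and for suberin genes 3 of 7. The share over all genes was not computed, and no other library was compared in this way. Median CPM of the late anthocyanin genes was 80.3 in the library labelled stress, 103 in the aba2-1 control and 87.4 in the WT library labelled release. In the same order it was 21.2, 22.2 and 23.1 for rapid response genes, and 740, 903 and 789 for light harvesting genes. Over all genes that WT library was 2-fold apart from the library labelled stress at 2558 genes. Whether the genotype label of a library is right was not tested, and neither was the part of these differences in the results below.

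**Figure D1:**
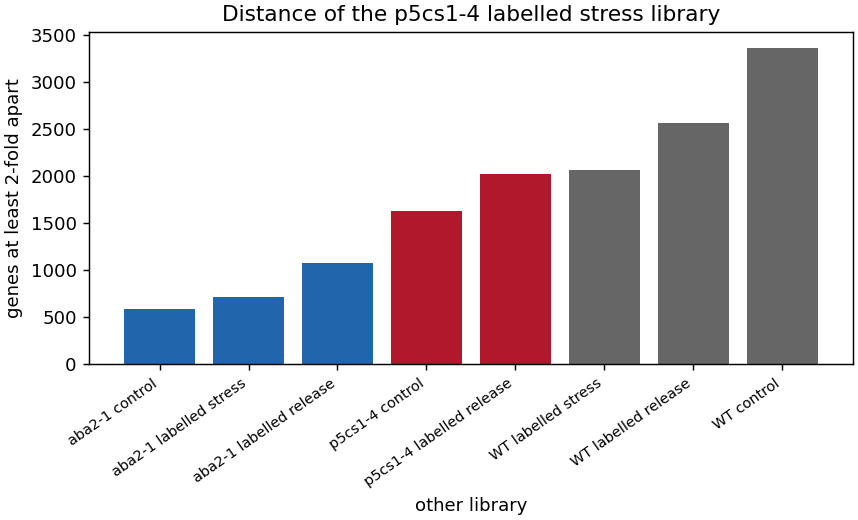
Number of genes at least 2-fold apart (y axis) between the p5cs1-4 library labelled stress and each of the other 8 libraries (x axis), with aba2-1 in blue, p5cs1-4 in red and WT in grey. The aba2-1 control is nearest with 583 genes and the WT control is farthest with 3359 genes.

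A gene was called when it was at least 2-fold apart on the scale of log2(CPM + 1) and had at least 5 CPM in either library. Of 16441 genes past that floor, 662 were higher (4.03%) and 960 were lower (5.84%) in the library labelled stress, and the median log2 ratio of all of them was -0.04. Of the higher genes 319 were past the floor only in the library labelled stress, and of the lower genes 290 only in the control. These genes could be called in no other direction. Of the called genes 40.8% were higher, but with library totals alone as the scale the share was 58.6%, with 916 higher and 648 lower genes, and with the deposited RPKM it was 55.4%. Library totals moved the median log2 ratio of all genes to 0.17. The depth behind the floor was 37.1 reads in the library labelled stress and 84.9 reads in the control.

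**Figure D2:**
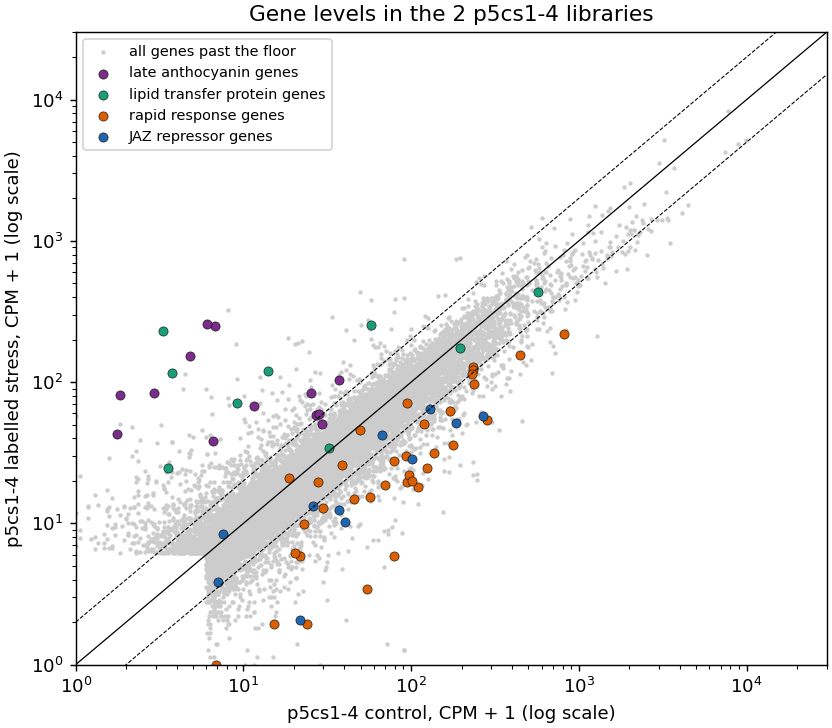
Level of each gene past the floor in the p5cs1-4 control (x axis) and the library labelled stress (y axis), in CPM + 1 on log scales; the solid line marks equal levels and the dashed lines a 2-fold difference. Late anthocyanin genes lie above the upper line in 12 of 13 cases, and rapid response genes lie below the lower line in 28 of 35.

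Late anthocyanin genes were higher in the library labelled stress. All 13 members of the list were past the floor, and 12 were at least 2-fold higher and 0 lower, beside 4.03% of all genes higher; the median log2 ratio was 2.55 against -0.04 for all genes. DFR, which makes leucoanthocyanidins, had 5.77 CPM in the control against 249 CPM in the library labelled stress, 43.0-fold higher (95% counting interval 35.1 to 53.3). LDOX, the next enzyme, had 5.07 and 257 CPM, which is 50.6-fold (40.8 to 63.6). Both genes were at low levels in the WT control (6.99 and 5.59 CPM) and in the WT library labelled stress (2.89 and 0.921 CPM). They had 391 and 307 CPM in the aba2-1 control, and 567 and 306 CPM in the WT library labelled release.

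Sugar transfer and transport genes of the same pathway followed this pattern. UF3GT, an anthocyanin glycosyltransferase, had 0.825 and 80.3 CPM, a 97.3-fold difference with a counting interval of 57.5 to 179. AT4G14090, annotated as an anthocyanidin 5-O-glucosyltransferase, had 3.77 and 153 CPM. The acyltransferase AT5MAT had 0.766 and 42.0 CPM, and GSTF12 (TT19), which carries anthocyanins to the vacuole, had 1.94 and 83.0 CPM. Smaller differences were found for UGT78D2, at 36.2 and 103 CPM, and BGLU10, at 27.3 and 58.0 CPM. UGT84A2, a sinapate glucosyltransferase, was the member that was not called, at 28.6 and 49.7 CPM. Of the 13 genes, 4 were past the floor only in the library labelled stress, so they could be called only as higher. The acyltransferase loci AT1G03940 and AT1G03495 shared 0.40 and 0.37 of their reads with other places, which makes their values less certain.

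The 250 bases before the annotated start of DFR, UF3GT and LDOX are shown because these genes were higher together, and that of RRTF1, a gene that was lower, is given for contrast. They were read from the TAIR10.1 reference, 5′ to 3′ on the gene's strand, with the matched motifs in capitals.
DFR, AT5G42800, chr5:17166033-17166282, minus strand: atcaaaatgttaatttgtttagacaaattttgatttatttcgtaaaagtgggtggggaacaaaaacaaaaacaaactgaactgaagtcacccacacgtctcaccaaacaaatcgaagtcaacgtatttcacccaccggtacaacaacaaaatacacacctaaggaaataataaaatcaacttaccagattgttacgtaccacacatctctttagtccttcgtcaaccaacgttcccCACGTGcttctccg
UF3GT, AT5G54060, chr5:21938397-21938646, minus strand: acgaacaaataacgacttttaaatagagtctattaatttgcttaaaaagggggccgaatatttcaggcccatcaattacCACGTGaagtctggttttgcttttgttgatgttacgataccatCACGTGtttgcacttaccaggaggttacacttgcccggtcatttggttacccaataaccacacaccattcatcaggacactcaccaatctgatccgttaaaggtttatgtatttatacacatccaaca
LDOX, AT4G22880, chr4:12006210-12006459, minus strand: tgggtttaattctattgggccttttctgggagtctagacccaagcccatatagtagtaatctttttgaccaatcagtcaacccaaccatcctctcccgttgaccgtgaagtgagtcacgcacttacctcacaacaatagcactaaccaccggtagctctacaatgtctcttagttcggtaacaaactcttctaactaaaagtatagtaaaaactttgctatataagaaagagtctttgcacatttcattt
RRTF1, AT4G34410, chr4:16451626-16451875, plus strand: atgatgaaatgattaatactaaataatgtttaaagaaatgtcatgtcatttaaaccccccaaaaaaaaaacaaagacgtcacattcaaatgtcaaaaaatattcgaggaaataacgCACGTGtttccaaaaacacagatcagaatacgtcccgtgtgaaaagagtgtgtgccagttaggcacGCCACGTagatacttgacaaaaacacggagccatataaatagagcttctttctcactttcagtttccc

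The letters searched on both strands were the G-box CACGTG, the AC element ACCTACC, the rapid stress element CGCGTT and the ABA-responsive element ACGTGGC. DFR held 1 G-box, UF3GT held 2, LDOX held none of the 4 motifs, and RRTF1 held 1 G-box and 1 ABA-responsive element. Over all 13 late anthocyanin genes 3 held the G-box, against 1780 of 27443 protein-coding genes (6.49%). The G-box was also in 4 of 12 JAZ genes (33.3%), 4 of 20 light harvesting genes (20%) and 5 of 38 rapid response genes (13.2%), lists whose called members were lower. It was in 4 of 15 early flavonoid genes (26.7%) and 0 of 9 lipid transfer genes, lists whose called members were higher. The AC element was in 0 of the 13, in 3 of 15 early flavonoid genes (20%) and in 1.16% of all. A match is a description of letters and not a binding site.

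Upstream genes had smaller ratios. Of 15 early flavonoid and phenylpropanoid genes 14 were past the floor. Of these 2 were called higher, beside 4.03% of all genes, and 0 lower, with a median log2 ratio of 0.47. CHS, the entry enzyme of the flavonoid branch, had 78.7 CPM in the control against 387 CPM in the library labelled stress, 4.92-fold (4.61 to 5.26). F3H was the other, at 5.77 and 30.6 CPM, but 0.96 of its reads were shared with other places. With library totals or RPKM as the scale 5 of the 14 were called higher. PAL1, PAL2 and C4H, which feed the whole phenylpropanoid pathway, had log2 ratios of 0.84, 0.05 and 0.87.

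Of 18 flavonoid regulators 12 were past the floor, and 4 were called higher, beside 4.03% of all genes, and 0 lower. PAP1, the MYB activator of the late genes, had 1.18 CPM in the control against 29.1 CPM in the library labelled stress. PAP2, a related MYB, had 0.295 and 5.53 CPM, and the bHLH partner TT8 had 0.707 and 8.91 CPM. The light-signalling factor HY5 had 6.78 and 20.5 CPM and was the fourth. PAP1, PAP2 and TT8 were past the floor only in the library labelled stress, so they could be called only as higher. The other bHLH partner past the floor, EGL3 (5.77 and 7.15 CPM), the MYB activator of flavonols MYB111 (4.01 and 5.13 CPM), SPL9 (5.66 and 4.99 CPM), the WD40 partner TTG1 (29.5 and 24.2 CPM), the repressor MYBL2 (54.4 and 44.3 CPM) and the repressors LBD37, LBD38 and LBD39 (log2 ratios 0.00, 0.18 and 0.19) were not called.

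**Figure D3:**
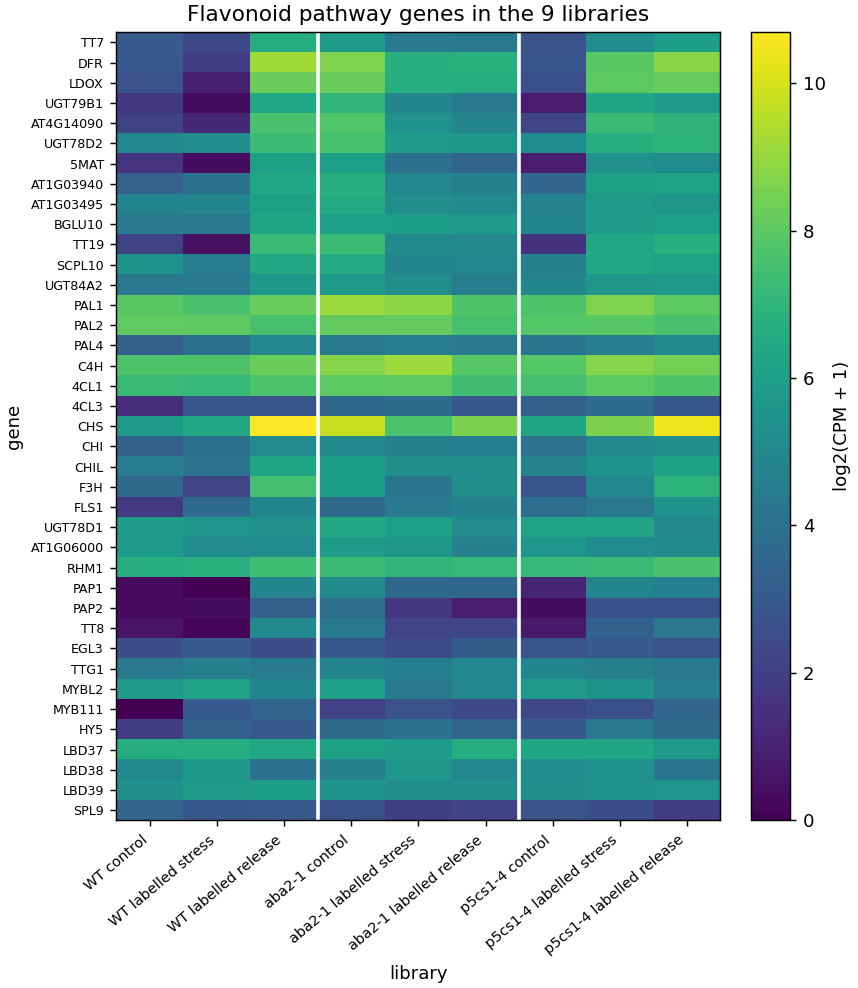
Level of each flavonoid pathway gene past the floor (rows) in the 9 libraries (columns), as log2(CPM + 1), with white lines between genotypes. DFR, LDOX and PAP1 are low in WT control, WT labelled stress and p5cs1-4 control, and higher in the other 6 libraries, a pattern that SCPL10 and UGT84A2 do not share.

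Genes of lipid transfer proteins, small proteins of the outer cell layers and of defence, were also higher. Of 9 members, all past the floor, 6 were called higher, beside 4.03% of all genes, and 0 lower, with a median log2 ratio of 2.80. LTP4 had 2.3 and 229 CPM, 99.8-fold (72.7 to 141), and its neighbour LTP3 had 2.77 and 115 CPM. AZI1, linked to systemic defence, had 13.1 and 119 CPM, and EARLI1 had 8.13 and 69.6 CPM. LTP3, LTP4 and AT4G12490 were past the floor only in the library labelled stress and could be called only as higher. LTP1, the member with the most reads at 572 and 433 CPM, and LTP5 and LTP6 were not called. In the aba2-1 control LTP4 had 478 CPM and in the aba2-1 library labelled stress 3.0 CPM. Under the release label LTP4 had 2342 CPM in p5cs1-4, 2841 CPM in WT and 41.3 CPM in aba2-1.

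Several genes that make and break down jasmonate, a wound and defence hormone, were lower. Of 14 synthesis genes past the floor 6 were called lower, beside 5.84% of all genes, and 0 higher; their median log2 ratio was -0.60. LOX3 had 233 CPM in the control against 20.9 CPM in the library labelled stress, 11.1-fold lower (9.48 to 13.2), and LOX4 had 195 and 24.8 CPM. OPR3 had 302 and 51.1 CPM, OPCL1 244 and 51.3 CPM, and AOS, the allene oxide synthase, 578 and 238 CPM. The other 8 were within 2-fold. LOX2, the lipoxygenase with the most reads, had 601 and 906 CPM, KAT2 217 and 345 CPM, ACX1 117 and 153 CPM, and JAR1 67.5 and 73.9 CPM, so the values of these 4 were above those of the control without being called.

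All 5 breakdown genes had lower values and 4 were called, beside 5.84% of all genes lower, with a median log2 ratio of -2.03. CYP94B3, an oxidase of jasmonoyl-isoleucine, had 37.3 and 8.23 CPM, and CYP94C1 had 28.9 and 2.83 CPM. CYP94C1 was past the floor only in the control and could be called only as lower. Of 11 JAZ repressor genes past the floor 7 were called lower, beside the same 5.84%, and 0 higher, and the median was -1.58. Of the 11, 2 were past the floor only in the control, JAZ7 among them, and could be called only as lower. JAZ7 had 20.6 and 1.08 CPM, JAZ9 268 and 56.3 CPM, and JAZ6 184 and 50.6 CPM, whereas JAZ11, at 6.54 and 7.42 CPM, and JAZ12 were not called.

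Output genes of the hormone were divided. MYC2, the main activator, had 380 and 106 CPM, and ORA59, CLH1 and TAT3 were also called lower. VSP2, a storage protein gene, had 98.3 and 237 CPM, VSP1 had 23.8 and 63.3 CPM, CORI3 had 44.7 and 196 CPM, and the thionin THI2.1 had 0.354 and 6.21 CPM, all called higher. THI2.1 was past the floor only in the library labelled stress, and 1 other member only in the control. The 8 members past the floor had a median log2 ratio of -0.01, which became 1.47 over 7 members with library totals, where 4 were higher and 3 lower, and 0.20 with RPKM.

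Rapid response genes, which answer touch, wounding and other signals within minutes, were lower. Of 38 members 35 were past the floor, and 28 were called lower, beside 5.84% of all genes, and 0 higher. The median log2 ratio was -1.73. The AP2/ERF factor ORA47 had 53.2 CPM in the control against 2.43 CPM in the library labelled stress, 21.9-fold lower (13.8 to 37.1). RRTF1 had 78.1 and 4.86 CPM, and the cold-response factor CBF2 had 14.2 and 0.945 CPM. CBF1 had 100 reads in the control and 0 in the library labelled stress. With 3 reads put in place of 0 it was 14.6-fold lower, and it was at least 11.6-fold lower by the 95% counting interval. Of the 28, 6 were past the floor only in the control, ORA47, RRTF1, CBF2 and CBF1 among them, and these could be called only as lower.

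ERF, zinc finger and calcium-binding members were lower too. ERF104 had 176 and 34.7 CPM, STZ, a salt-responsive zinc finger, 101 and 19.0 CPM, and WRKY40 123 and 23.7 CPM. TCH3, a calmodulin-like gene named for its response to touch, had 814 and 217 CPM, and the deadenylase CAF1A had 284 and 53.3 CPM. WRKY33, WRKY11, WRKY53, MYB15, MYB44, DREB26 and TEM1 were the 7 that were not called. These genes were at low levels in the aba2-1 control as well: ORA47 had 2.79 CPM, RRTF1 0.931 CPM and TCH3 137 CPM there. In the WT library labelled release ORA47 had 3.90 CPM and RRTF1 4.59 CPM.

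Salicylate defence genes were mostly within 2-fold. Of 27 members 19 were past the floor, and 5 were called lower and 2 higher, beside 5.84% and 4.03% of all genes. The median log2 ratio was -0.54. Of the 19, 4 were past the floor only in the control, PCC1 and LURP1 among them, and could be called only as lower. Another 1 was past it only in the library labelled stress. PCC1, a salicylate-responsive gene, had 70.5 CPM from 1196 reads in the control and 0.405 CPM from 3 reads in the library labelled stress, a ratio of 174 with a counting interval of 59.4 to 845, and up to 0.40 of its reads were shared with other places. LURP1, needed for resistance to oomycetes, had 39.8 and 1.08 CPM. ACD6 had 87.3 and 7.56 CPM, and WRKY70, which balances salicylate and jasmonate responses, had 78.9 and 9.58 CPM. PAD3, the last enzyme of camalexin synthesis, had 8.01 and 22.0 CPM and was higher. The core genes ICS1, EDS1, PAD4 and NPR1 were not called, and the marker PR1 was under the floor in both libraries at 0.471 and 0.270 CPM.

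**Figure D4:**
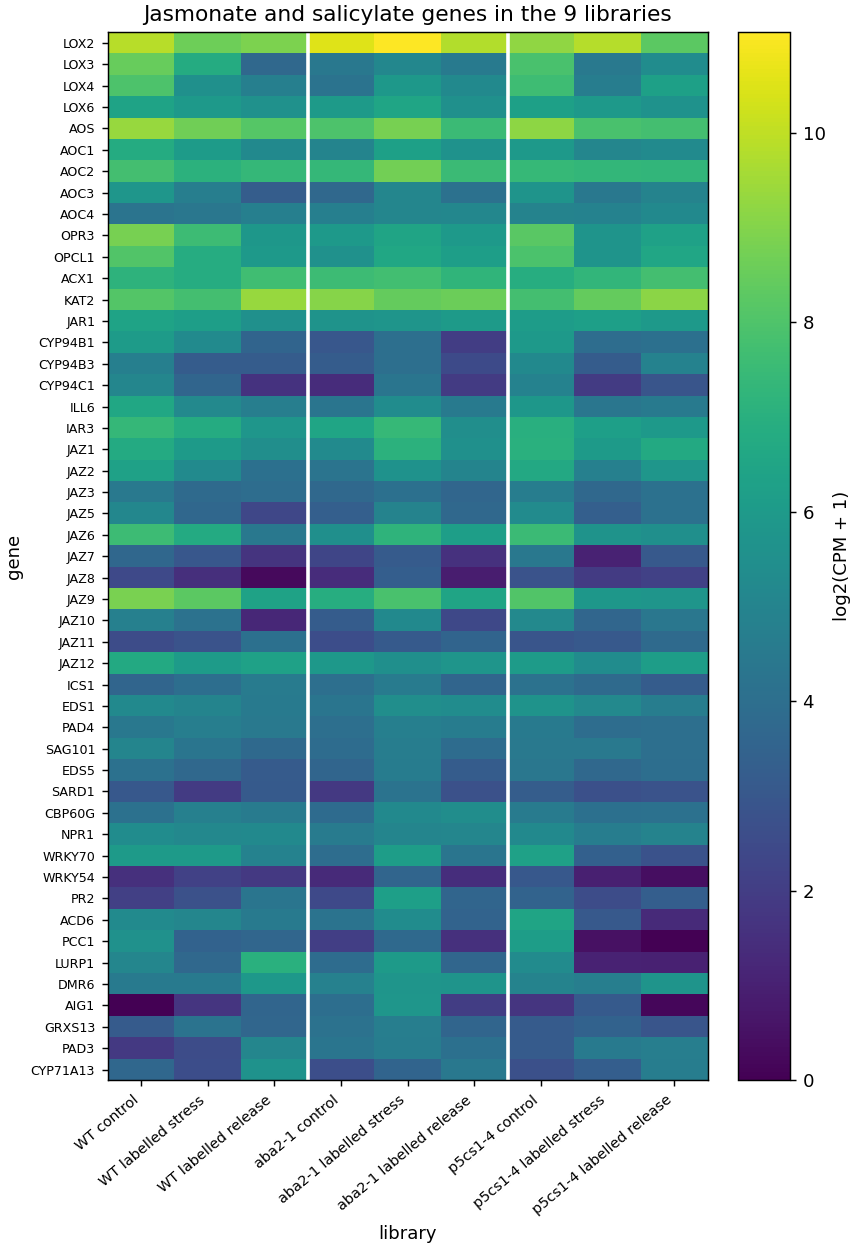
Level of each jasmonate and salicylate gene past the floor (rows) in the 9 libraries (columns), as log2(CPM + 1), with white lines between genotypes. LOX3, LOX4, OPR3 and most JAZ genes are higher in the p5cs1-4 control than in the p5cs1-4 library labelled stress.

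Nuclear genes of photosynthesis were lower by a smaller factor. In the light harvesting, photosystem I, photosystem II and Calvin cycle lists all 63 members had values below those of the control. Of the 63, 21 were called lower, beside 5.84% of all genes, and 0 higher. With library totals 8 were called lower, and with RPKM 9. The light harvesting list had 10 of 20 called, with a median log2 ratio of -0.97; with library totals as the scale 4 were called and the median was -0.76. LHCA1 had 1931 CPM in the control against 633 CPM in the library labelled stress, and LHCB1.4 had 1285 and 211 CPM. Photosystem I had 6 of 12 called and 1 of 12 with library totals. HEMA1, which starts chlorophyll synthesis, was the one called gene of its list of 14 past the floor, at 487 and 236 CPM, and was not called with library totals. In whole seedlings fewer green cells and less RNA per green cell cannot be told apart.

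Glucosinolates are sulfur-rich defence compounds of the cabbage family. Of 24 aliphatic genes past the floor 8 were called lower, beside 5.84% of all genes, and 0 higher, and the median log2 ratio was -0.86. Of the 24, 2 were past the floor only in the control. BCAT4, at the start of side chain elongation, had 314 and 92.6 CPM, MAM1 had 496 and 175 CPM, and CYP79F1 had 372 and 106 CPM. The regulators MYB28 and MYB29 were within 2-fold and MYB76 had 5.24 and 1.21 CPM. On the indole side 3 of 16 were called lower: CYP79B3 and the myrosinases TGG1 and TGG2, which had 2148 and 857 CPM and 517 and 142 CPM.

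Root hair genes were higher at low levels. Of 17 members 14 were past the floor and 12 were called higher, beside 4.03% of all genes. But all 12 were past the floor only in the library labelled stress and could be called in no other direction. EXPA7, an expansin of root hair cells, had 0.530 and 11.7 CPM, and LRX1 had 3.89 and 31.8 CPM. The hair regulators RHD6, RSL2 and RSL4 were under the floor at 0.648 and 3.78, 0.236 and 2.02, and 0.354 and 2.16 CPM. Summed over the list, 163 CPM stood in the control and 282 CPM in the library labelled stress.

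Other organ markers were given the same look. Root markers had 2 of 10 past the floor higher (4 with library totals) and 1 lower, with a summed level of 3934 CPM in the control against 6365 CPM in the library labelled stress. Shoot markers had 0 of 11 called, with a median log2 ratio of -0.58 and summed levels of 773 and 531 CPM. Of 13 suberin genes 1 of 7 past the floor was higher, KCS2. All 11 seed markers and 6 of 7 flower markers were under the floor, and among the seed markers SESA3 and CRU2 had 0 reads in both libraries. The part of organ proportions in the other groups was not tested.

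Dehydration genes were divided in direction. Of 27 past the floor 8 were called higher and 9 lower, beside 4.03% and 5.84% of all genes, and the median log2 ratio was -0.21. Of the 27, 3 were past the floor only in the library labelled stress, LEA7 among them, and 1 only in the control. RAB18 had 22.4 and 81.4 CPM, LEA7 2.71 and 20.4 CPM, HIS1-3, a linker histone, 25.6 and 116 CPM, and RD20, a calcium-binding lipid body protein gene, 9.55 and 30.8 CPM. RD29A had 181 and 34.0 CPM, COR47 841 and 234 CPM, and ERD10, another dehydrin, 715 and 159 CPM, all lower. NCED3, the rate-limiting enzyme of stress ABA synthesis, had 27.2 and 8.91 CPM.

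Core ABA signalling genes were mostly within 2-fold. None of the 8 receptor genes past the floor was called. Of these 6 were below 0, with a median log2 ratio of -0.31, and PYL7 and PYL9 had -0.97 and -0.90. Of 7 clade A phosphatase genes 1 was higher: HAI2, at 1.71 and 19.7 CPM, which was past the floor only in the library labelled stress. HAI1 had 11.1 and 16.1 CPM, and ABI1 109 and 120 CPM. CYP707A3, which breaks down ABA, had 48.1 and 14.3 CPM. ABA2 itself had 17.0 and 18.5 CPM.

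Most proline genes were within 2-fold. Of 10 past the floor 2 were called higher, beside 4.03% of all genes, and 0 lower, with a median log2 ratio of 0.34. P5CS1 was 1.39-fold higher in the library labelled stress (1.3 to 1.49), P5CS2 1.13-fold (1.05 to 1.21), and P5CR 1.16-fold (1.07 to 1.26). PRODH1 was 1.93-fold higher (1.81 to 2.05) and OAT, ornithine aminotransferase, 1.92-fold (1.68 to 2.19). P5CDH had 56.4 and 114 CPM and the amino acid transporter LHT1 14.0 and 56.4 CPM, and these were the 2 called. With library totals as the scale 4 were called.

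Nutrient and carbon genes gave a mixed account. Of 11 phosphate starvation genes past the floor 5 were higher and 0 lower, beside 4.03% of all genes higher. Among the 5 were PAP17, an acid phosphatase, at 15.9 and 84.1 CPM, and SPX1 at 14.7 and 47.4 CPM. Of the 11, 2 were past the floor only in the library labelled stress and 1 only in the control. Of 11 sulfate genes 5 were higher and 0 lower, with the root transporter SULTR1;2 at 27.8 and 114 CPM. Of 8 nitrate genes past the floor 0 were higher and 1 lower, and of 15 iron genes 0 were higher and 2 lower. Their median log2 ratios were -0.38 and 0.31. GPT2, a glucose-6-phosphate transporter of plastids, had 1.18 and 47.0 CPM, and APL3, a subunit of the starch enzyme ADP-glucose pyrophosphorylase, had 15.4 and 107 CPM. APL1, BAM3 and the sugar carrier STP1 were lower, at 194 and 76.5, 642 and 229, and 326 and 116 CPM. DIN2 and BCAT2 were higher and DIN1, DYL1 and TPS11 lower among 12 low-energy genes. GPT2 and DIN2 were past the floor only in the library labelled stress and could be called only as higher.

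Of 8 auxin-response genes past the floor 5 were called lower, beside 5.84% of all genes, and 0 higher. The median log2 ratio was -1.18. With library totals 4 were called lower and the median was -0.97. IAA19, an auxin-induced repressor, had 31.1 and 4.99 CPM, IAA29 had 9.55 and 1.48 CPM, and IAA6 had 5.66 and 0.135 CPM, the last from 1 read. These 3 were past the floor only in the control and could be called only as lower. Of 22 wall expansion genes past the floor 16 were within 2-fold, 5 were lower (EXPA8, XTH6, XTH8, XTH17 and XTH18) and 1, XTH20, was higher, and the median log2 ratio was -0.09, or 0.11 with library totals. None of 17 cell cycle genes past the floor was called, nor any of 4 heat shock genes.

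Some of the same lists took other values in the other genotypes, and some were below 0 in every genotype. The late anthocyanin list had a median log2 ratio of -0.88 in WT and -1.71 in aba2-1, and the rapid response list had -0.31 in WT and 0.99 in aba2-1. The jasmonate breakdown list had -1.41 in WT and 1.03 in aba2-1, and the lipid transfer list had 0.24 and -1.26. Jasmonate synthesis genes had -0.73 in WT and 0.62 in aba2-1, and JAZ genes -0.68 and 1.37. Below 0 in every genotype were light harvesting (-0.17 in WT and -0.61 in aba2-1), Calvin cycle (-0.25 and -0.60) and aliphatic glucosinolate genes (-0.33 and -0.66). Over 15646 genes past the floor in both, the p5cs1-4 and WT ratios had a Pearson r of 0.20, and over 15929 genes the p5cs1-4 and aba2-1 ratios had an r of -0.11. These contrasts share no library, and differences between genotypes were not tested.

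**Figure D5:**
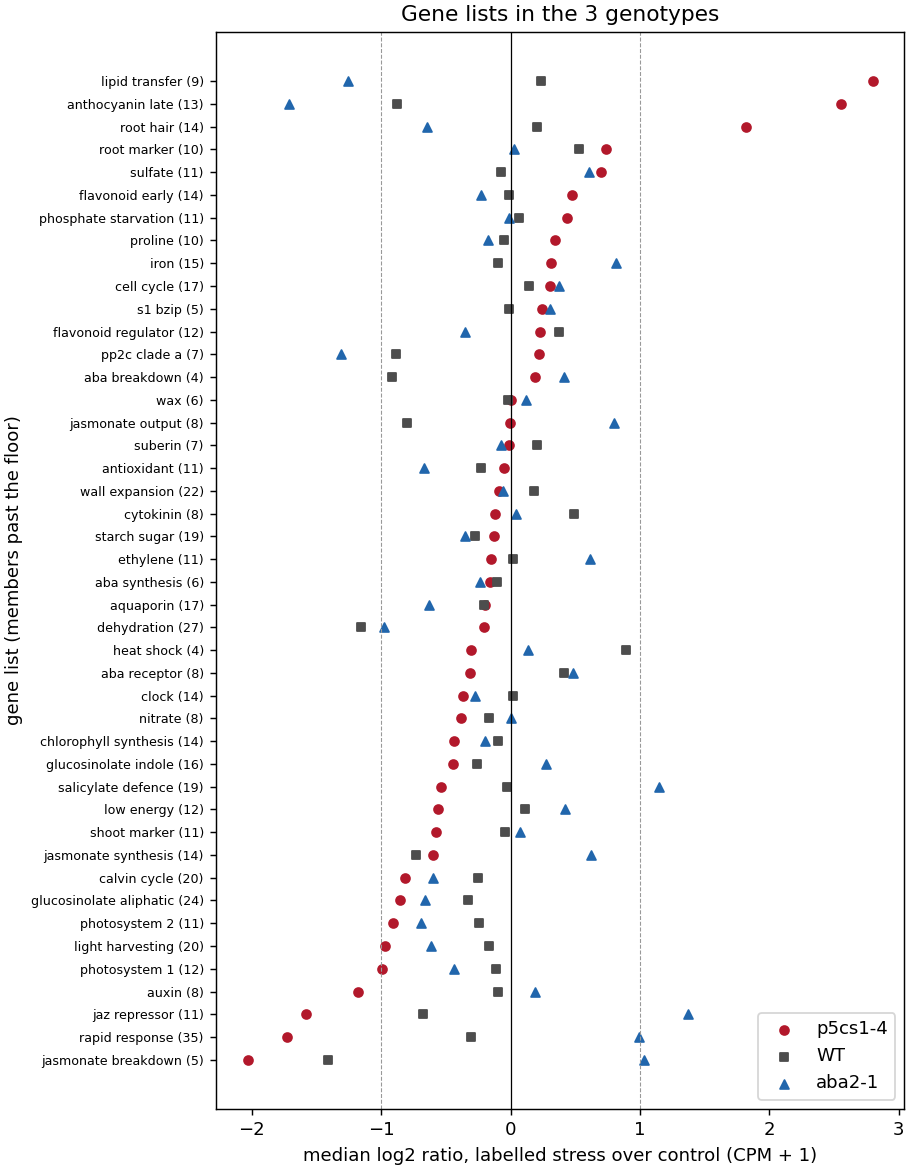
Median log2 ratio of the library labelled stress over control (x axis) for each gene list with at least 3 members past the floor (y axis), in p5cs1-4 (red circles), WT (grey squares) and aba2-1 (blue triangles); the dashed lines mark 2-fold. The late anthocyanin list stands at 2.55, -0.88 and -1.71.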

How the data were processed

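Polyadenylated RNA of whole seedlings was sequenced in 9 libraries, 1 per genotype and treatment, after 18 cycles of PCR and with no molecular identifiers, per the labels' protocols. CASAVA 1.6 and TAIR10 are named, per the submitters' processing notes, without a role; aligner, counter and strandedness: not given in the sources used here. The deposited estimated counts, per the file headers, apportion reads that map to several places, and were rounded here. The deposited RPKM are reads per length and library size, and the deposited fraction is the multi-mapping share of each gene's reads, per the file headers. Counts were scaled by TMM (edgeR 4.0.16, R 4.3.3) to CPM. Log2 ratios used a pseudocount of 1 CPM, and folds are ratios of CPM with exact 95% conditional intervals (scipy 1.17.1). With 1 library a side no test or replicate error exists, and the reads behind each value set its precision. RPKM, other scales (among them DESeq2 1.42.0 size factors), floors and the pseudocount were alternatives, and the steps were tested on simulated data. Named genes are the 25 highest and 25 lowest ratios among genes with a symbol and under 0.5 of reads shared, the proline genes and the members of 46 lists; members and lists were chosen with earlier results of these data known. Of 33518 locus tags 32709 matched TAIR10.1, which gave symbols and promoters.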

Additional observations from a re-analysis of the deposited data

Results flagged for a closer look

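In 4 gene lists the medians were at least 2-fold away from 0, in opposite directions in p5cs1-4 and in aba2-1; the difference was not tested, since each side has 1 library. Late anthocyanin genes had a median log2 ratio of 2.55 in p5cs1-4 and -1.71 in aba2-1. Lipid transfer protein genes had 2.80 and -1.26. Jasmonate breakdown genes had -2.03 and 1.03, and JAZ repressor genes had -1.58 and 1.37. The p5cs1-4 library labelled stress was nearer to the aba2-1 control, at 583 genes 2-fold apart, than to its own control, at 1622, and the part of the genotype labels in these opposite signs was not tested.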

How the results depend on the processing

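Each side is 1 library, so no library could be left out. No paired analysis was possible because each group has 1 library. The count of higher genes was 662 and of lower genes 960. With a floor of 20 CPM they were 335 and 638. The lower genes numbered 639 with RPKM and 612 where the whole counting interval lay beyond 2-fold. In an alternative chosen after seeing the data, the p5cs1-4 library labelled release over the same control gave 1408 higher and 1976 lower genes; the cause was not tested. The other 12 values of the counts stayed within 1.5 times. Of 313 list medians under the alternatives 16 left the 95% interval of the median over the list's members and 297 did not, and of 2930 ratios of 586 named genes 683 left their counting interval by a shift of at least 0.1 and 2247 did not. None of the 230 called genes among them changed sign; 43 genes within 2-fold did, all with library totals and 39 of them with RPKM. No list with a median of at least 1 in size changed sign. Library totals and RPKM moved the median of all genes to 0.17 and 0.14. Genes near 5 CPM rest on about 37.1 reads in the library labelled stress.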

Other observations

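Among the 25 genes with the highest ratios 15 stood in none of the lists. PRX52, a peroxidase gene, had 0.825 CPM in the control against 49.5 CPM in the library labelled stress, 60.0-fold (35.3 to 111), and 58.3 CPM in the aba2-1 library labelled stress. NIT2, a nitrilase, had 8.07 and 186 CPM, and the protease inhibitor UPI had 4.95 and 87.8 CPM. NATA1, annotated as an ornithine N-delta-acetyltransferase, had 1.36 and 26.9 CPM, PCK2, a phosphoenolpyruvate carboxykinase, 1.3 and 31.6 CPM, and the heat shock factor HSFA6A 0.354 and 12.4 CPM. PRX52, UPI, NATA1, PCK2 and HSFA6A were past the floor only in the library labelled stress and could be called only as higher. Of these 25 genes, 5 were at least 2-fold higher in aba2-1 as well and 12 at least 2-fold lower. In WT 2 were higher and 7 lower. No floor was set in WT or aba2-1 for these counts. UF3GT, AT5MAT, GSTF12 and DAA1, among the lower genes in WT, were under 5 CPM in both WT libraries. Past the floor, 1387 of 16234 genes were at least 2-fold apart in either direction in WT, and 1325 of 16407 in aba2-1.

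Among the 25 lowest, the aldolase FBA5 had 246 CPM in the control against 21.5 CPM in the library labelled stress, 11.5-fold lower (9.77 to 13.5), and ERD7 had 457 and 51.9 CPM. NEET, an iron-sulfur protein gene, had 108 and 12.7 CPM, and MSRB6, a methionine sulfoxide reductase, 88.8 and 13.1 CPM. In WT, 13 of the 25 were at least 2-fold lower and 0 at least 2-fold higher. In aba2-1 1 was lower and 10 were higher. These counts also had no floor in WT or aba2-1.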
